A study of Mus musculus with 23 samples.

Results

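The miRNAs described here are the erythroid miRNAs miR-451a, miR-144 and miR-486, which were chosen by name and not by their values, though with earlier results of these data known. They are 7 of the 1218 mature mouse miRNAs counted in the liver (mmu-miR-451a, mmu-miR-144-3p, mmu-miR-144-5p, mmu-miR-486a-5p, mmu-miR-486b-5p, mmu-miR-486a-3p and mmu-miR-486b-3p), and all 7 were among the 386 miRNAs that passed a filter on low counts and were tested. Small RNA of whole liver was sequenced in 23 F3 male C57bl/6J mice, 1 library per mouse, after the mice had been fasted. In the reference group (n = 8), mice of the control lineage, whose growing diet held 1% of high-oleic sunflower oil over the generations, were kept on a low-fat diet, in which fat gave 10% of the energy. In HFoleic (n = 8), mice of the same lineage were challenged for 17 weeks with the high-fat, high-sucrose diet, with 45% of the energy as fat. In HFepa (n = 7), mice of the omega 3 lineage, bred with 1% of a fish oil rich in EPA, went through the same challenge, and none of the 3 groups was an omega 3 lineage on the low-fat diet. The age of the mice was not given in the sources used here. The comparisons ask whether these miRNAs differed with the high-fat challenge and with the lineage.

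miR-451a and miR-144 are transcribed together from a cluster that the transcription factor GATA1 activates in maturing red cells. miR-451a is cut from its hairpin by Argonaute 2 without Dicer, and it protects red cells from oxidative stress; miR-144-3p is known to target Nrf2 (Nfe2l2). miR-486 lies in Ank1, the gene of a red cell membrane skeleton protein, and is found in red cells and in muscle. These miRNAs persist in circulating red cells, so that in whole liver they are commonly taken as a sign of the blood left in the tissue. The study's methods describe no removal of blood from the liver. In whole tissue, fewer red cells and less of a miRNA per red cell cannot be told apart.

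The mature sequences of 3 of the 7 members were held in the RefSeq table of GRCm38.p6 and are shown because miR-451a and the 2 arms of miR-144 come from neighbouring hairpins and yet differ in sequence. They are written 5′ to 3′, with the seed (bases 2 to 8) in capitals.
mmu-miR-451a: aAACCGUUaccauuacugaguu
mmu-miR-144-3p: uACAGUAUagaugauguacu
mmu-miR-144-5p: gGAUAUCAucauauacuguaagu
The 3 seeds differed from each other, and 0 others of the 1679 mature miRNAs of the table had any of them. Of the table, only mmu-miR-101a-3p shared bases 2 to 7 with miR-144-3p. Both hairpins lie on the plus strand of chromosome 11, and they are shown with the mature arms in capitals to compare where each arm lies.
Mir144: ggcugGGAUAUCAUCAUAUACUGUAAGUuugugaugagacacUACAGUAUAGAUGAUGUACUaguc
Mir451a: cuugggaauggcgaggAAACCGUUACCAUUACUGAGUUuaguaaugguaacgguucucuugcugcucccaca
Mir144 spans chr11:78073005-78073070 and Mir451a chr11:78073170-78073241 (GRCm38.p6), with 99 bases between them. In the GENCODE annotation no other gene overlapped Mir144, and Mir451a was overlapped by Mir451b on the opposite strand. Mature miR-451a covers bases 17 to 38 of its 72-base hairpin, whereas miR-144-5p covers bases 6 to 28 and miR-144-3p bases 43 to 62 of a 66-base hairpin. Mir486, on the plus strand, spans chr8:23142555-23142682, and Mir3107, the gene of mir-486b, lies on the opposite strand at chr8:23142573-23142662, all 90 bases of it within Mir486. Both lie in Ank1 and overlap none of its exons, so they are intronic.

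Some libraries stood apart, which bears on the results below. Total counts were between 3725432 and 8139344 per library. Reference library 3 had the lowest summed level of 4 hepatocyte miRNAs (miR-122, miR-192 and miR-194), 113597 CPM (counts scaled to a common library size, computed with edgeR's TMM scaling factors) against 207718 to 250728 in the other reference libraries, and its leukocyte miRNAs were the highest of all libraries with 3557 CPM. Reference library 4 held 219 CPM of 6 muscle and heart miRNAs against 2.13 to 11.8 CPM in the other reference libraries, and reference library 5 held 2021 CPM of 4 pancreas miRNAs against 13.0 to 57.4 CPM. By the labels, libraries 1 to 8 were reference, 9 to 15 and 23 HFoleic, and 16 to 22 HFepa. No reference library is numbered above 11 and no HFepa library below 12, so that these 2 groups alone do not tell the group and the library number apart. A fit of the 3 groups with a term for the number can do so only through HFoleic, if the number acts alike in every group.

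The erythroid miRNAs were abundant and unequal in level. miR-486a-5p ranked 28 of the 386 tested miRNAs by mean CPM, miR-486a-3p 35, miR-451a 59, miR-144-5p 109 and miR-144-3p 124. The mean levels over the 23 libraries were 4411 ± 1061 CPM for miR-486a-5p, 2465 ± 629 CPM for miR-486a-3p, 796 ± 204 CPM for miR-451a, 171 ± 38.1 CPM for miR-144-5p and 114 ± 29.2 CPM for miR-144-3p (SD, n = 23). Mature miRNAs are of similar length, and CPM takes no account of how well each sequence is ligated and amplified, so the order of levels between miRNAs is that of reads. Together these 5 took between 0.505% (95% Wilson interval 0.499 to 0.512%) of the counts in HFepa library 22 and 1.32% (1.31 to 1.33%) in reference library 4. The intervals cover only the counting error of reads within 1 library, not the spread between mice. Copies made by amplification count in them as separate reads, since the reads carried no molecular identifiers.

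The rows of miR-486a and miR-486b held nearly equal counts, and how reads that match both were assigned is not given in the sources used here. In 23 of 23 libraries the miR-486a-5p count was above the miR-486b-5p count, by 0.553 to 1.50% of it, and the miR-486a-3p count was above the miR-486b-3p count by 0.0742 to 0.380%. Their fold changes differed by at most 0.0052 (5p) and 0.0012 (3p) on the log2 scale in the 3 comparisons. Levels of miR-486a and miR-486b can therefore not be separated, and the miR-486a rows are given below for both.

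miR-451a, which is largely restricted to red cells, had a similar range in the 3 groups. It was 537 CPM at the lowest (library 3), 715 at the median and 1245 at the highest (library 4) in the reference group. In HFoleic it was 511 CPM at the lowest (library 9), 759 at the median and 1076 at the highest (library 14). In HFepa it was 578 CPM at the lowest (library 16), 708 at the median and 1059 at the highest (library 17). The groups overlapped almost wholly, with means of 781 ± 227, 799 ± 204 and 811 ± 208 CPM (SD), and the order of these means lies within their spread. Counts behind these levels were 2584 to 10388 per library.

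**Figure D1:**
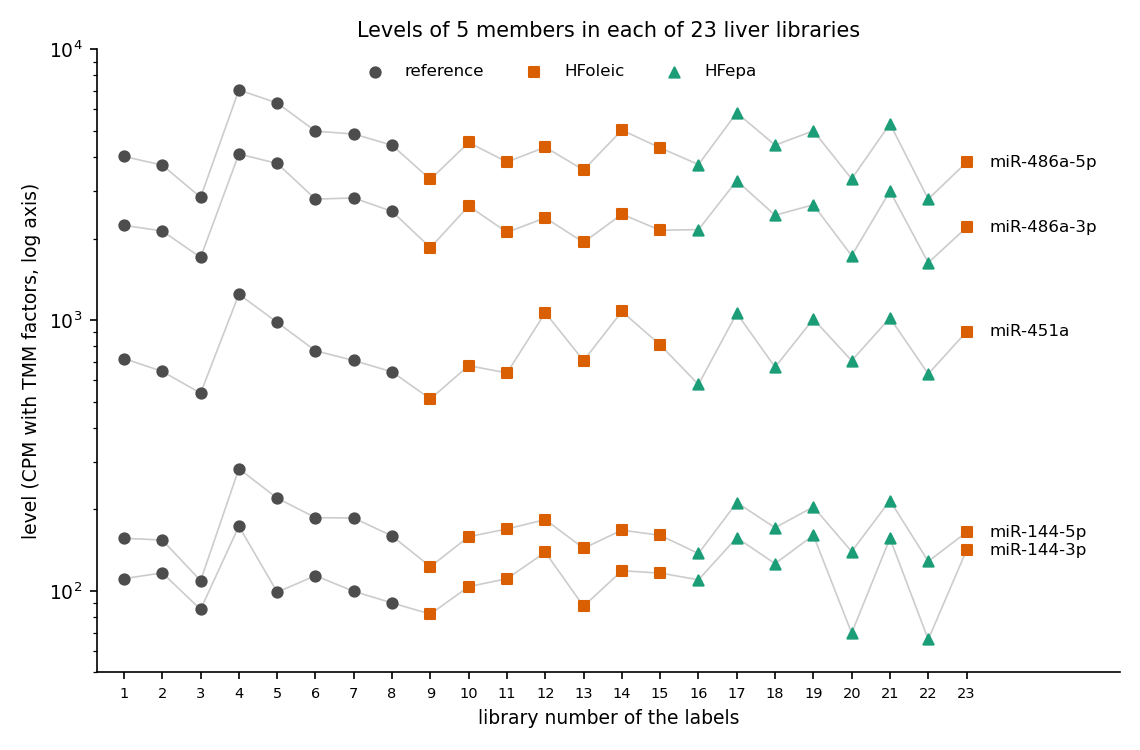
Level in CPM with TMM factors (log axis) of 5 erythroid miRNAs against the library number of the labels, 1 point per library; circles are reference, squares HFoleic and triangles HFepa, and grey lines join the libraries of 1 miRNA as a guide. All 5 are highest in reference library 4, and the lines broadly follow each other. However, miR-144-3p falls further than the others from library 4 to library 5 and dips further in libraries 20 and 22. miR-451a lies closer to miR-486a-5p in HFoleic libraries 12 to 15 and 23 than in libraries 9 to 11.

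The 2 arms of miR-144 came from 1 hairpin but spread differently. miR-144-3p, the arm with the better known targets, was 85.3 (lowest, library 3), 105 (median) and 173 CPM (highest, library 4) in the reference group. It was 82.0, 114 and 141 CPM in HFoleic and 66.1, 126 and 160 CPM in HFepa. The HFepa libraries were thus far apart: libraries 20 and 22 were at 69.8 and 66.1 CPM, below all 16 libraries of the other groups, and libraries 17, 19 and 21 were at 156 to 160 CPM. miR-144-5p was 109 (library 3), 173 (median) and 282 CPM (library 4) in the reference group. It was 123, 162 and 183 CPM in HFoleic and 128, 171 and 215 CPM in HFepa. The HFoleic values of miR-144-5p were the closest together, with an SD of 18.3 CPM against 51.9 in the reference group and 38.0 in HFepa, and the 3 groups overlapped.

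miR-486a-5p, the more abundant arm of miR-486, was 2840 (library 3), 4642 (median) and 7072 CPM (library 4) in the reference group. It was 3305, 4080 and 5028 CPM in HFoleic and 2797, 4423 and 5827 CPM in HFepa. miR-486a-3p was 1703, 2658 and 4103 CPM in the reference group, 1851, 2172 and 2638 CPM in HFoleic and 1628, 2438 and 3270 CPM in HFepa. In both arms the reference mean was the highest and the HFoleic mean the lowest. The means were 4784 ± 1378, 4097 ± 561 and 4346 ± 1107 CPM for the 5p arm and 2763 ± 820, 2215 ± 266 and 2411 ± 617 CPM for the 3p arm, in the order reference, HFoleic and HFepa. These differences lie within the spread of the reference libraries, of which, in both arms, library 3 was below and libraries 4 and 5 above all HFoleic values in CPM. For the 3p arm, reference libraries 6 and 7 were above all HFoleic values too, at 2797 and 2823 CPM. The place of library 3 depends on its TMM factor. It held 19601 (5p) and 11756 (3p) counts in a total of 5493579. HFoleic library 9 held fewer, 18893 and 10582, in a larger total of 5582691.

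Of the 7 members, 0 were called in HFoleic vs. reference where 12.4% of the 386 tested miRNAs were. A call needed an absolute log2 fold change above 0.25 and an adjusted p below 0.05 (edgeR's quasi-likelihood test, Benjamini-Hochberg). At an unadjusted p under 0.05 it was also 0 of 7, against 28.5% of all tested miRNAs in edgeR's test. DESeq2 and limma after quantile normalization likewise gave 0 of 7 at either level. They called fewer of all tested miRNAs, 6.48% with DESeq2 and 2.59% with limma. Their shares at the unadjusted level are not given here. The log2 fold change was 0.03 for miR-451a (SE 0.18, 95% interval -0.34 to 0.41), which in linear terms is 1.02-fold (0.788 to 1.33). It was 0.02 for miR-144-3p (SE 0.18), -0.19 for miR-144-5p (SE 0.15), -0.22 for miR-486a-5p (SE 0.16) and -0.32 for miR-486a-3p (SE 0.16). miR-486a-3p came nearest to a call, with an unadjusted p of 0.063 and an adjusted p of 0.203 in edgeR's quasi-likelihood test, and its interval of -0.66 to 0.02 held values from 0.635-fold to 1.01-fold. The median log2 fold change of the 7 members, in which each miR-486 arm counts by both its rows, was -0.22, that of all tested miRNAs -0.00244. With each arm counted once, the middle value was that of miR-144-5p, -0.19. Without reference library 3 the log2 fold change of miR-486a-3p was -0.39 (unadjusted p = 0.0207, adjusted p = 0.106), and without reference libraries 4 and 5 it was -0.10 (adjusted p = 0.748).

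HFepa vs. reference called 0 of the 7 members, against 15.8% of all tested miRNAs. DESeq2 and limma also called 0 of 7, against 11.9% and 6.22% of all tested miRNAs. At an unadjusted p under 0.05 it was 0 of 7 in edgeR's quasi-likelihood test, in DESeq2 and in limma. In edgeR's test 28.5% of all tested miRNAs had such a p. The log2 fold changes were 0.05 for miR-451a (95% interval -0.34 to 0.44), 0.12 for miR-144-3p (-0.28 to 0.52), -0.07 for miR-144-5p (-0.40 to 0.25), -0.14 for miR-486a-5p (-0.49 to 0.21) and -0.20 for miR-486a-3p (-0.55 to 0.15). The lowest adjusted p among the 7 was 0.504, that of miR-486a-3p, in edgeR's quasi-likelihood test. Both comparisons share the reference libraries. The median of the 7, in which each miR-486 arm counts by both its rows, was -0.14, that of all tested miRNAs -0.06. With each arm counted once, the middle value was that of miR-144-5p, -0.07.

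HFepa vs. HFoleic, which compares the lineages under the high-fat diet, called 0 of the 7 members and 0% of all tested miRNAs. At an unadjusted p under 0.05 in edgeR's quasi-likelihood test it was 0 of 7 against 5.70%. DESeq2 and limma again gave 0 of 7 at either level, and each called 0% of all tested miRNAs. The log2 fold changes were 0.02 for miR-451a, 0.10 for miR-144-3p, 0.12 for miR-144-5p, 0.09 for miR-486a-5p and 0.12 for miR-486a-3p, with SE of 0.16 to 0.19. The 95% intervals reached from -0.37 to 0.41 for miR-451a and from -0.23 to 0.47 for miR-486a-3p. For miR-486a-3p the interval held values from 0.855-fold to 1.39-fold.

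**Figure D2:**
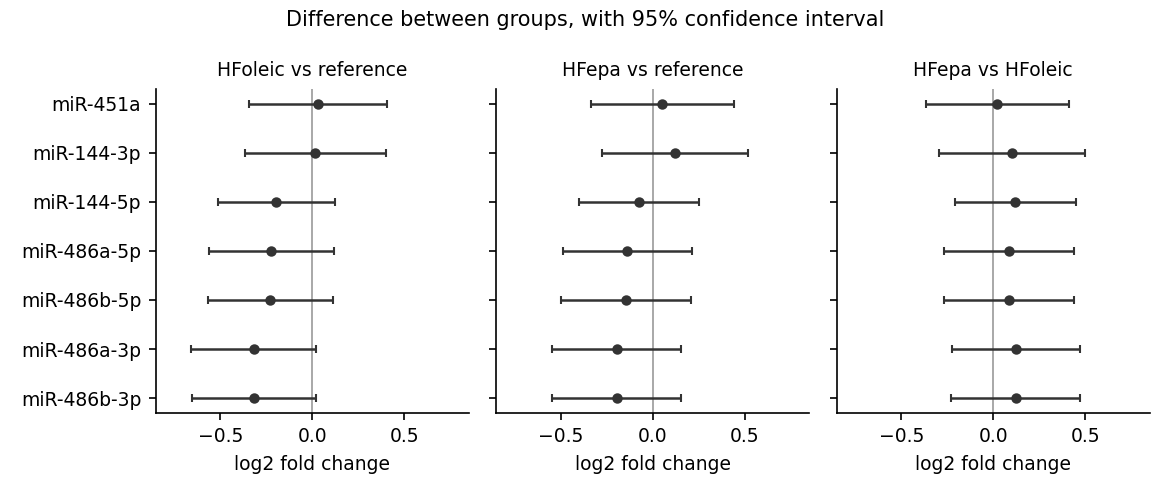
Log2 fold change of each of the 7 members in the 3 comparisons (points), with its 95% confidence interval from edgeR's quasi-likelihood fit (bars); the grey line marks no difference. Every interval includes 0, and the points of miR-486a-3p and miR-486b-3p in HFoleic vs. reference, at -0.32, are the farthest from it.

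The direction of the difference of miR-451a, and that of miR-144-3p in the comparisons with the reference group, moved with the library number. Among libraries 1 to 11 alone, the log2 fold change of miR-451a in HFoleic vs. reference was -0.35 (edgeR's quasi-likelihood test, adjusted p = 0.669), against 0.03 over all libraries. When a term that sets libraries 1 to 11 against 12 to 23 was fitted, it was -0.36 in HFoleic vs. reference and -0.53 in HFepa vs. reference (adjusted p = 0.539 and 0.723). Among libraries 12 to 23 alone it was -0.17 in HFepa vs. HFoleic (adjusted p = 0.879). miR-144-5p, miR-486a-5p and miR-486a-3p kept their direction with the term in all 3 comparisons, and in HFoleic vs. reference they were at -0.27, -0.30 and -0.33. Within HFoleic, miR-451a was 511 to 678 CPM in HFoleic libraries 9 to 11 and 708 to 1076 CPM in HFoleic libraries 12 to 15 and 23, with no overlap. The other members overlapped in this split, such as miR-486a-5p at 3305 to 4526 CPM and 3582 to 5028 CPM. How many of all tested miRNAs do not overlap in it was not counted. The labels do not say what the library number stands for.

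Ratios between 2 members of 1 library do not depend on how the libraries are scaled. miR-451a counts were 6.96 times those of miR-144-3p in the reference libraries, 7.01 times in HFoleic and 6.90 times in HFepa (geometric means), and the 3 comparisons gave two-sided p of 0.883 or more in an exact permutation test. miR-144-5p counts were 1.62, 1.43 and 1.48 times those of miR-144-3p, and in HFoleic vs. reference the log2 ratio was lower by 0.18 (difference -0.18, exact permutation test, p = 0.124). The same 3 libraries were highest in both ratios. miR-144-5p over miR-144-3p was 2.22 in reference library 5, 1.998 in HFepa library 20 and 1.94 in HFepa library 22. It was at most 1.86 in the other 20. The ratio of miR-451a over miR-144-3p was likewise highest in these 3, at 9.91, 10.1 and 9.55. HFoleic library 14 came next, at 9.06, before which reference library 5, HFepa library 20 and HFepa library 22 stand. In these 3 libraries, in the same order, miR-144-3p was at 98.9, 69.8 and 66.1 CPM.

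miR-486a-5p counts were 6.10 times those of miR-451a in the reference group (5.29 to 6.87), 5.24 times in HFoleic (4.08 to 6.67) and 5.35 times in HFepa (4.42 to 6.60). The log2 ratio differed by -0.22 in HFoleic vs. reference and by -0.19 in HFepa vs. reference (exact permutation test, two-sided, p = 0.0634 and 0.0721; adjusted over the 9 ratio tests by Benjamini-Hochberg, 0.324 in both). It was lower than the reference mean in 6 of 8 HFoleic and 5 of 7 HFepa libraries. This ratio also followed the library number within HFoleic. It was 6.01 to 6.67 in libraries 9 to 11 and 4.08 to 5.34 in libraries 12 to 15 and 23, without overlap. The ratio holds the same miR-451a counts as the levels above, so it is not a separate observation. Among libraries 1 to 11 alone, the difference in HFoleic vs. reference was 0.06 (exact permutation test, p = 0.485). Among libraries 12 to 23 alone, HFepa was 0.20 above HFoleic (exact permutation test, p = 0.115). The smallest p that the permutations allow was 0.000155 for all libraries, 0.00606 for libraries 1 to 11 and 0.00126 for libraries 12 to 23.

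**Figure D3:**
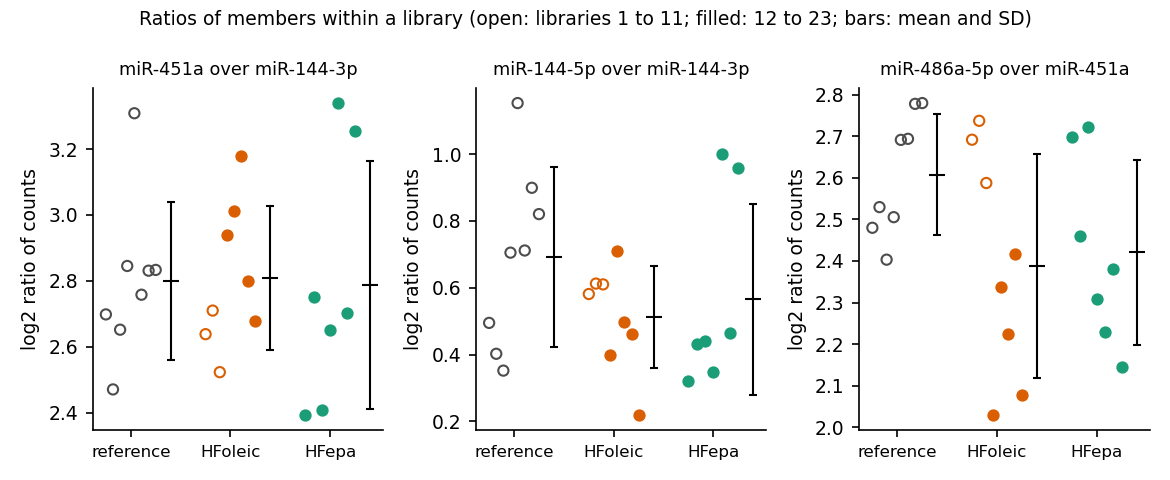
Log2 ratio of the counts of 2 members in each library for 3 ratios, by group; open circles are libraries 1 to 11, filled circles libraries 12 to 23, and bars give the mean and SD of the group. In the right panel the 3 open HFoleic points lie above the 5 filled ones, and in the left and middle panels 1 reference and 2 HFepa points lie apart at the top.

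What the members shared was their course over the libraries. In CPM with TMM factors, reference library 4 was the highest of all 23 for each of the 7. Within the reference group library 3 was the lowest for each. This order depends in part on the factors, of which that of library 3 was the highest, at 1.26. Reference library 2 held fewer miR-451a counts (3617 against 3705 in library 3) in a larger total (5708662 against 5493579). Of miR-144-3p, HFepa library 19 held 674 in a total of 3725432 and reference library 4 held 1445 in 8139344. Without the factors library 19 is therefore the higher of these for miR-144-3p. Over all libraries the highest level was 2.44 times the lowest for miR-451a, 2.62 times for miR-144-3p, 2.59 times for miR-144-5p, 2.53 times for miR-486a-5p and 2.52 times for miR-486a-3p. The SD of log2 CPM within groups was 0.31 to 0.39 for the members. The median of all tested miRNAs was 0.33, but among the 124 miRNAs at least as abundant as miR-144-3p it was 0.21, and 91 to 102 of these 124 had a smaller SD than the members.

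Across the 23 libraries, log2 CPM of miR-451a correlated with that of miR-144-5p (Pearson's r = 0.84, p = 1e-05; Spearman's rho = 0.79, p = 4e-05; permutation test), where 1e-05 is the smallest p that 100000 permutations give. The same permutation test gave r = 0.78 (p = 2e-05) and rho = 0.77 (p = 5e-05) for miR-486a-5p, r = 0.73 (p = 0.0001) and rho = 0.73 (p = 0.00013) for miR-144-3p, and r = 0.71 (p = 0.00013) and rho = 0.69 (p = 0.00042) for miR-486a-3p. Adjusted over the 6 correlations by Benjamini-Hochberg, these permutation p were 4e-05 to 0.00013 for r and 0.00015 to 0.00042 for rho. Without libraries 4 and 14, the farthest from the median of miR-451a, r was 0.84, 0.72, 0.70 and 0.66 in the same order. Deviations from the group means gave r of 0.87, 0.82, 0.73 and 0.78. Among libraries 1 to 11 alone r was 0.95, 0.94, 0.80 and 0.94, and among libraries 12 to 23 alone 0.82, 0.77, 0.71 and 0.71. All levels of 1 library share its total and its scaling factor, and with library totals in place of TMM factors r was 0.85, 0.79, 0.75 and 0.73. The relation of miR-144-5p with miR-486a-5p, which lie on different chromosomes, was closer still, with r = 0.94 and rho = 0.92 over the 23 libraries (permutation test, p = 1e-05 for each), and r = 0.91 without libraries 3 and 4.

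**Figure D4:**
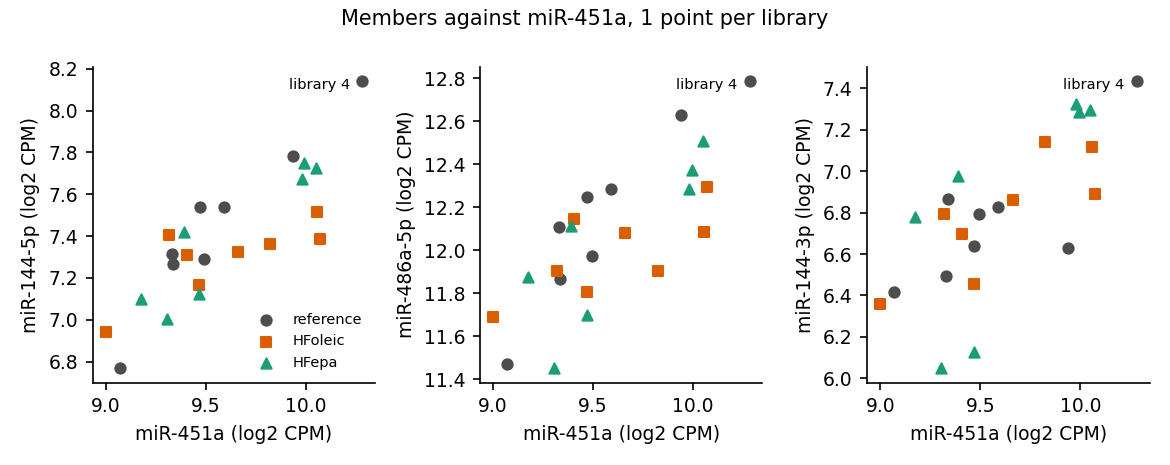
Log2 CPM of miR-144-5p, miR-486a-5p and miR-144-3p against log2 CPM of miR-451a, 1 point per library (n = 23), marked by group. All 3 groups run along the same rising band with r of 0.84, 0.78 and 0.73, reference library 4 lies at its upper end, and HFepa libraries 20 and 22 lie lowest for miR-144-3p.

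Of all tested miRNAs, the 6 whose levels followed miR-451a most closely by Spearman's rho were the other 6 members (0.69 to 0.79). These include both rows of each miR-486 arm, which nearly repeat each other, and miR-144, which is transcribed together with miR-451a. The next 5 were miR-879-5p (0.52), miR-455-3p (0.50), miR-5121 (0.49), miR-15b-3p (0.46) and miR-185-5p (0.45), each over 23 libraries. Of these 5, miR-185-5p is also known from red cells, and miR-879-5p and miR-5121 had few reads, with means of 3.51 and 2.05 CPM.

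Other miRNAs known from red cells were set beside the members. A list of 10 (miR-16-5p, miR-15b-5p, miR-25-3p, miR-92a-3p, miR-93-5p, miR-106b-5p, miR-185-5p, miR-363-3p, miR-182-5p and miR-96-5p), most of which many other cells also express, had a summed level of 14817 to 19240 CPM over all libraries. In reference library 4 it was 18409 CPM and in reference library 3 18589 CPM, where the summed level of the 7 members, with the miR-486 reads entering by both rows, was 23991 and 9794 CPM. The sum is mostly that of miR-16-5p (6901 to 9783 CPM) and miR-92a-3p (3909 to 7491 CPM), and single miRNAs of the list ranged more widely, such as miR-182-5p from 543 to 3151 CPM and miR-96-5p from 2.03 to 23.7 CPM. Of the 9 tested, 0 were higher and 1 was lower in HFoleic vs. reference and in HFepa vs. reference, and 0 were called in HFepa vs. HFoleic, where the shares of all tested miRNAs called were 12.4%, 15.8% and 0%, so that these counts are near the background; the median log2 fold changes were 0.09, 0.04 and -0.02. The 1 that was lower was miR-25-3p, at 1134 ± 97.7 CPM in reference, 948 ± 82.0 in HFoleic and 924 ± 63.4 in HFepa (log2 fold change -0.26 and -0.29; edgeR's quasi-likelihood test, adjusted p = 0.0174 and 0.00653).

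Markers of the other cells of the liver, and of neighbouring tissues, were set beside the members. Of 6 leukocyte miRNAs tested, 1, the lymphocyte miR-150-5p, was lower in both comparisons with the reference group, near the shares of 12.4% and 15.8% called in either direction among all tested miRNAs. Of 2 endothelial miRNAs 1, miR-126a-5p, was higher in HFepa vs. reference. Its log2 fold change of 0.251 was barely above the threshold of 0.25 (edgeR's quasi-likelihood test, adjusted p = 0.0416). The other arm, miR-126a-3p, was not called, at 0.12 (same test, adjusted p = 0.21). Of 4 hepatocyte miRNAs 0 were called in any comparison. Only 1 of 6 muscle and heart miRNAs (miR-133a-3p) and 1 of 4 pancreas miRNAs (miR-375-3p) passed the filter, and both were lower in the 2 comparisons with the reference group, whose libraries 4 and 5 held the high values given above. With the term for the library number, 1 and 0 of the 386 tested miRNAs were called in these comparisons. Muscle also holds miR-486, and reference library 4 had both the highest muscle and heart sum and the highest members. In CPM, miR-451a and miR-144 were highest there too. In reference library 5 miR-486a-5p was at 6336 CPM, above all 21 libraries other than library 4. The muscle and heart sum of library 5 was 11.8 CPM, the highest of the reference libraries after library 4 (reference median 6.13 CPM). The part of muscle, pancreas or leukocyte RNA in the levels of the members was not tested.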

How the data were processed

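The authors trimmed adapters with the FASTX-Toolkit, aligned reads with Bowtie in ncPRO-seq and deposited raw read counts per mature miRNA, 1 column per library. The submitters' processing notes name bcl2fastq 2.17.1.14 and mm10 (GRCm38), whereas the methods name GRCm38.p6 and mm9; the table holds no coordinates, and those given come from RefSeq and GENCODE on GRCm38.p6. The authors also deposited a signal per library (counts over a size factor), used here only to obtain these factors. Their group means, log2 fold changes and p-values were not used. The sources differ on the RNA input.

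The members and the lists of other miRNAs were chosen with earlier results of these data known. Libraries were grouped by the lineage and diet of the labels, and library numbers are those of the sample titles. Counts were filtered with filterByExpr (minimum count 10) and scaled by TMM, and the 3 groups entered 1 quasi-likelihood fit in edgeR 4.0.16 (R 4.3.3). log2 CPM used a prior count of 2. Ratios were taken on counts plus 0.5 and tested by exact permutation; correlations used 100000 permutations (SciPy 1.17.1). All members were described; of other miRNAs the 5 most alike to miR-451a were named, and list members only where called or in naming the list. The fits were tested on simulated counts. Libraries of 1 group differed by at least 28.9 in chi-square per degree of freedom, so each was kept as 1 replicate. Alternatives were library totals, TMM without the members, the deposited size factors, DESeq2 1.42.0, quantile normalization with limma 3.58.1, other filters and subsets of libraries; the size factors, miR-144-5p in place of miR-451a, and correlations and ratios without reference libraries 4 and 5 were added after seeing the data.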

Additional observations from a re-analysis of the deposited data

Results flagged for a closer look

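Among 48 sets of values checked, each of 1 group of libraries, 6 held a library whose gap to the others was large against the whole range by Dixon's criterion; chance alone marks about 1 in 20 sets. For the members, miR-144-3p was at 173 CPM in reference library 4 against 85.3 to 117 CPM in the other 7, and the log2 ratio of miR-451a over miR-144-3p was 3.31 in reference library 5 against 2.47 to 2.85. For the lists set beside them, the endothelial sum was 26007 CPM in HFoleic library 14 against 18214 to 21287 CPM, the hepatocyte sum 113597 CPM in reference library 3, the muscle and heart sum 219 CPM in reference library 4 and the pancreas sum 2021 CPM in reference library 5. The causes were not tested.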

How the results depend on the processing

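No member was called in any comparison under any of the 101 combinations of comparison and alternative, each library left out included. Over these, the share of all tested miRNAs called was 0 to 13.8% in HFoleic vs. reference and 0 to 17.2% in HFepa vs. reference. In HFepa vs. HFoleic it was 0 to 0.256%. Where this share was 0% or near it, 0 of 7 says little about the members. At an unadjusted p under 0.05, library totals and the fit with no filter each held 2 of 7 in HFoleic vs. reference. These are the 3p rows of miR-486a and miR-486b, which nearly repeat each other. Leaving out reference library 1 or reference library 3 also gave 2 of 7 there, and leaving out HFepa library 20 gave 1 of 7. In the main fit 28.5% of all tested miRNAs had such a p in HFoleic vs. reference. The shares under these alternatives are not given here. All 24 alternative correlations kept their direction and an adjusted p under 0.05. Of 505 alternative log2 fold changes 39 changed sign, and of 159 alternative ratio differences 24 did; none of these passed the threshold, and the cause was not tested. In HFoleic vs. reference, library totals gave -0.050 for miR-144-3p and -0.036 for miR-451a, quantile normalization -0.061 for miR-451a, the library number term -0.17 and -0.36, libraries 1 to 11 alone -0.16 and -0.35 (miR-144-3p and miR-451a), and leaving out reference libraries 4 and 5 0.0021 for miR-144-5p. In HFepa vs. reference, quantile normalization gave 0.048 for miR-144-5p and -0.089 for miR-451a, the term -0.16 for miR-144-3p and -0.53 for miR-451a, and leaving out reference libraries 4 and 5 0.026, 0.12 and 0.069 for miR-486a-3p, miR-144-5p and miR-486a-5p. In HFepa vs. HFoleic, quantile normalization gave -0.058, -0.028 and -0.033 for miR-486a-3p, miR-451a and miR-486a-5p, and miR-451a was -0.00044 with at least 10 counts in every library, -0.17 with the term and -0.17 with libraries 12 to 23 alone. The ratios of miR-451a over miR-144-3p and of miR-486a-5p over miR-451a were -0.18 and 0.065 in HFoleic vs. reference with libraries 1 to 11 alone, and the former was 0.079 in HFepa vs. reference without reference libraries 4 and 5.

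With each library left out in turn, the log2 fold changes that changed sign were -0.036 to 0.14 for miR-144-3p and -0.038 to 0.16 for miR-451a in HFoleic vs. reference, -0.15 to 0.045 for miR-144-5p and -0.023 to 0.18 for miR-451a in HFepa vs. reference, and -0.055 to 0.11 for miR-451a and -0.0019 to 0.19 for miR-486a-5p in HFepa vs. HFoleic. The ratio of miR-451a over miR-144-3p ranged over -0.043 to 0.083, -0.11 to 0.060 and -0.12 to 0.042 in the 3 comparisons, and in HFepa vs. HFoleic miR-144-5p over miR-144-3p over -0.018 to 0.094 and miR-486a-5p over miR-451a over -0.019 to 0.082. No paired analysis was possible because the labels give the groups no shared replicate numbers. Each level of a member rests on 280 to 58993 counts. With 1 library per mouse, the spread between mice and that between library preparations cannot be told apart.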
